A study of Mus musculus with 10 samples.

Results

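The subject is the wild-type (WT) chromatin signal of mouse neural stem and progenitor cells (NSPCs), set against the expression of the same genes in WT RNA. It takes 5 of the 10 libraries of the series: 2 CUT&Tag libraries and 3 RNA-seq libraries, all labelled WT, from brain and with no treatment. The other libraries are from NSPCs labelled Mina53-KO and were not compared. The series title places the study on Mina53, a JmjC-domain protein whose current symbol is Riox2, and on arginine demethylation of histone H4. The labels name no antibody for the CUT&Tag, no brain region and no age, and they leave unsaid whether each library is from its own animal or culture. No library without the antibody and no input was used here, so the signal carries no background subtraction.

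Each CUT&Tag region was joined to the gene the authors assigned it to, and genes were grouped by their mean TPM (a level per gene length, scaled to the same total in each library) over the 3 WT RNA libraries. Of 69418 regions, 69300 were joined to a gene of the RNA table, 54 had no assigned gene and 64 had a gene outside that table. Of 57180 genes, 31900 measured 0 in each RNA library and form the TPM 0 group. The other 25280 were cut into quartiles of 6320 genes, with median levels of 0.0420, 0.380, 9.07 and 59.9 TPM from the lowest to the highest. The quartile bounds were 0.120, 1.75 and 24.3 TPM. Names of predicted or clone form made up 74.6% of the TPM 0 genes and 2.44% of the highest quartile, which held 4634 and 6089 genes listed as protein-coding by RefSeq.

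CUT&Tag marks chromatin with an antibody and a tethered transposase, which cuts and tags the DNA beside the bound feature, so reads pile up where the feature lies. Dimethylation of histone H4 at its arginine near the amino terminus exists in asymmetric and symmetric forms; the asymmetric form is written mainly by Prmt1 and is linked with active transcription, and the symmetric form, written by Prmt5 among others, is linked with repression. The transcription start site (TSS) is where RNA polymerase begins, and most promoters of broadly expressed mammalian genes lie in DNA rich in the CpG dinucleotide.

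The RNA libraries held 23562986 to 25939376 counts and correlated across genes with Spearman's rho of 0.941 to 0.948 (25280 genes, which are not independent). The CUT&Tag libraries, called WT 1 and WT 2, held 55710306 and 47732697 reads in all. Of these, 5.61% and 6.10% lay in the regions, a median of 34 and 31 reads per region. The authors marked 20867 and 22821 regions as peaks in WT 1 and WT 2, 33788 in at least 1 of them and 9900 in both. The regions were merged over all 4 CUT&Tag libraries, and the remainder were marked in KO libraries only. A region therefore need not be a WT peak, and a gene with no region has no measured signal, not a signal of 0. With 2 libraries the smallest 2-sided p of an exact test is 0.5, so values are given per library and no test was made between expression groups.

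The RNA carried the markers of NSPCs. Nes, an intermediate filament of neural stem cells, measured 315, 198 and 273 TPM in the 3 libraries, Sox2, a stem cell transcription factor, 219, 161 and 198 TPM, and Fabp7, a fatty acid binding protein of radial glia, 3817, 4861 and 4283 TPM. All 24 listed stem and radial glia genes reached 1 TPM. Of 14 microglia markers 9 were at 0, among them Aif1 and Cx3cr1, and their summed level was 3.86 to 4.43 TPM. The 12 endothelial and pericyte markers summed to 8.05 to 12.1 TPM, the 12 fibroblast markers to 23.9 to 25.1 TPM and the 9 erythroid markers to 0.698 to 1.07 TPM. The 14 oligodendrocyte lineage genes summed to 2130 to 3750 TPM, most of it from Olig1 and Olig2. The 16 astrocyte genes summed to 3501 to 5221 TPM, against 9904 to 10166 TPM for the 24 stem and radial glia genes. Intermediate progenitor and neuroblast genes (16) summed to 370 to 394 TPM, and neuron and synapse genes (23) to 511 to 557 TPM. Fewer cells of a type and less RNA per cell cannot be told apart in these bulk samples.

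Regions at the TSS became more frequent with expression. Of the highest quartile, 62.8% of genes (3968 of 6320; 95% Wilson interval 61.6 to 64.0) had at least 1 region within 1 kb of the TSS, against 51.8% in quartile 3, 21.4% in quartile 2, 14.5% in quartile 1 and 6.48% (2068 of 31900; 6.22 to 6.76) at TPM 0. Over all 57180 genes the share was 20.3%. A gene can have several start sites, and a region within 1 kb of any of them was counted. Pde4d, for example, had 8 such regions between chr13:109252924 and chr13:110063429. The number of start sites per gene was not compared between groups. The intervals of the 5 groups do not overlap, though they cover counting error only and genes of the same libraries are not independent. When the groups were built from each RNA library alone, the highest quartile gave 63.1, 62.8 and 63.4% and the TPM 0 genes 7.05, 7.15 and 7.12%.

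The rise was not even along the scale of expression. When the expressed genes were cut into 20 bins of 1264, the share lay between 13.1 and 17.7% in the lowest 6 bins, with medians up to 0.151 TPM. It was 26.8% at a median of 1.22 TPM, 38.7% at 2.54 TPM, 47.9% at 5.09 TPM and 57.6% at 14.1 TPM. From a median of 28.8 TPM to the top bin at 254 TPM it stayed between 60.7 and 64.6%. More than 1 in 3 genes in the most highly expressed bin thus had no deposited region within 1 kb of the TSS.

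**Figure D1:**
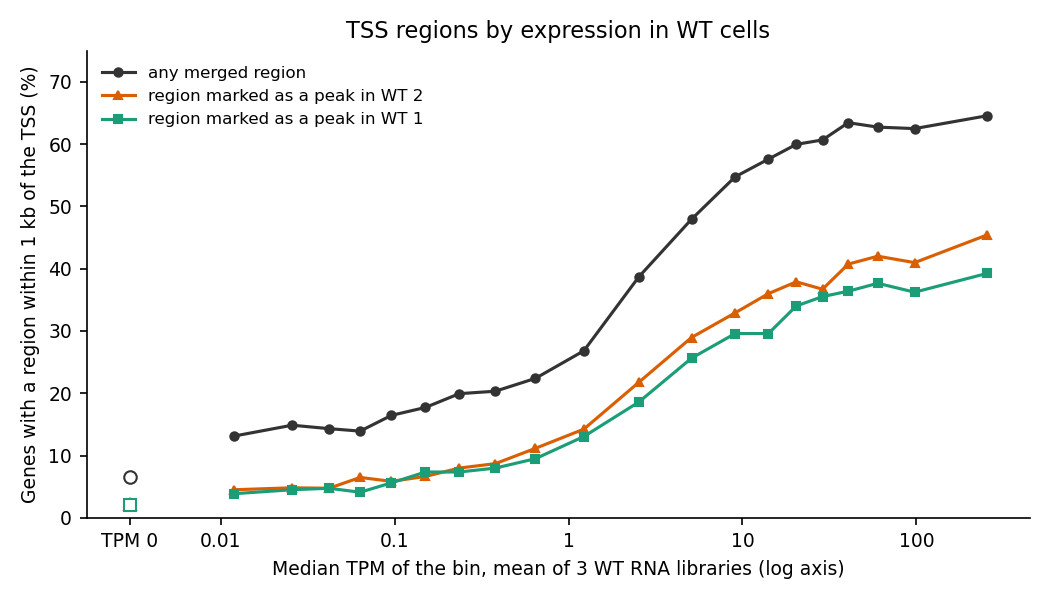
Share of genes (%) with a region within 1 kb of the TSS against the median TPM of 20 bins of expressed genes (log axis), with the TPM 0 genes as open symbols at the left, where the symbols of WT 1 and WT 2 nearly coincide. Black circles count any of the merged regions, and green squares and orange triangles count only regions the authors marked as a peak in WT 1 or WT 2. The black line climbs from 26.8% at 1.22 TPM to 57.6% at 14.1 TPM and then flattens.

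The gradient was present in the authors' peak marks of each WT library. In WT 1, 37.0% of the highest quartile and 2.04% of the TPM 0 genes had a TSS region marked as a peak, and in WT 2 the shares were 41.2 and 2.19%. Regions marked in both libraries stood at the TSS of 26.8, 19.5, 5.03, 1.90 and 0.944% of genes from the highest quartile down to TPM 0. Regions marked in at least 1 WT library stood there in 50% and 3.26% of the highest quartile and the TPM 0 genes.

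Where a TSS region lay also differed between groups. In the highest quartile 67.9% of the 5019 TSS regions overlapped the start site itself, 15.3% lay upstream and 16.8% downstream. At TPM 0 only 20.2% of the 2215 regions overlapped it, while 48.1% lay downstream and 31.7% upstream. The quartiles between them gave 32.8, 43.6 and 59.5% in order of rising expression. TSS regions were also wider in the highest quartile, with a median of 351 bases per region against 294 bases at TPM 0. The median summed width per gene was 434 against 308 bases. More than 1 TSS region was held by 819 of 3968 genes in the highest quartile and 143 of 2068 at TPM 0.

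The strength of the TSS signal moved far less than its presence. The signal is the level of WT reads in a gene's regions within 1 kb of the TSS, in RPM (reads scaled to the total of the library), divided by the kb of region. Its median over genes was 1.95 in WT 1 and 2.05 in WT 2 at TPM 0, 2.14 and 2.36 in quartile 1, 2.27 and 2.49 in quartile 2, 2.42 and 2.72 in quartile 3, and 2.54 and 2.84 in the highest quartile. The order of the 5 medians was the same in both libraries. Neighbouring quartiles differed by less than WT 1 and WT 2 did, and WT 2 was the higher of the 2 in each group. The highest quartile stood 1.20-fold above the lowest. Within a group the spread was wide: from the first to the third quartile of genes it ran from 2.02 to 3.17 in WT 1 in the highest expression group, and from 1.41 to 2.58 at TPM 0.

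The signal gradient depended on which regions were counted. With only regions marked as peaks in both WT libraries, the ratio of the highest to the lowest quartile was 0.989, so the highest was not above the lowest. With regions marked in at least 1 WT library it was 1.08. The marks were made from the same libraries as the signal, so a choice by them is not independent of it. Regions marked in both stood at the TSS of only 1.90% of genes in the lowest quartile, against 26.8% in the highest. Without division by region length the ratio was 1.52. The median summed width per gene was 434 bases in the highest quartile and 338 bases in the lowest. Across the 9515 expressed genes with a TSS region, TPM and signal had a Spearman's rho of 0.146 in WT 1 and 0.155 in WT 2, and the signals of the 2 libraries correlated with each other at 0.674. Within a quartile, the rho of TPM and signal lay between 0.015 and 0.093. These are descriptions across genes that share libraries and region widths.

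**Figure D2:**
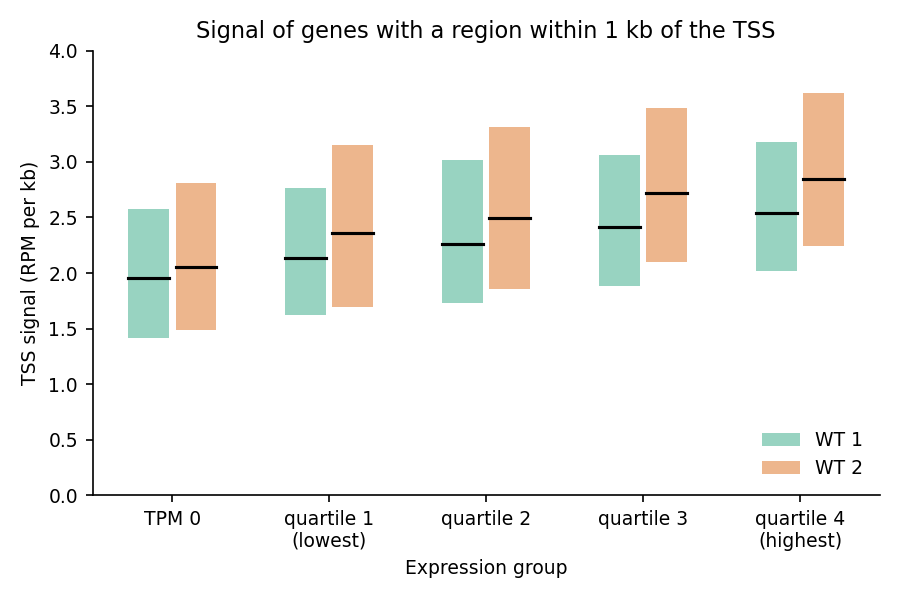
TSS signal (RPM per kb of region) of the genes that had a region within 1 kb of the TSS, by expression group and library. Boxes span the first to the third quartile of genes and black lines are medians, which go from 1.95 (WT 1) and 2.05 (WT 2) at TPM 0 to 2.54 and 2.84 in the highest quartile, while the boxes of all groups overlap.

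Counting regions at any distance gave a flatter picture. At least 1 region was assigned to 34.6% of TPM 0 genes, 52.0 and 53.0% of quartiles 1 and 2, 73.7% of quartile 3 and 81.6% of the highest quartile. The number of regions per gene was 0.735, 1.17, 1.29, 2.45 and 2.34 in the same order, so that quartile 3 held the most. Among the 20 bins it peaked at 2.87 regions per gene at a median of 20.4 TPM and was 1.92 in the top bin. Genes with a region differed in length between groups: their median genomic length was 915 bases at TPM 0, 23140 bases in quartile 3 and 19179 bases in the highest quartile. Per 100 kb of such genes, intron regions numbered 8.05 at TPM 0, 3.50 in quartile 1 and 2.45 in quartile 2. They numbered 2.23 in quartile 3 and 2.29 in the highest quartile. An intron region need not lie in the gene it was assigned to: Mir6239, 105 bases long, had 17. These values are therefore not a density within the genes. The part of gene length in the number of regions was not tested further.

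The expression groups also differed in where their regions lay. The median distance from a region to the TSS of its gene was 13180 bases at TPM 0, 10058, 8139 and 6560 bases in quartiles 1 to 3, and 4334 bases in the highest quartile. Regions more than 50 kb away made up 16.0% of those at TPM 0 and 4.73% in the highest quartile. By the authors' annotation, promoter regions within 1 kb rose from 9.45% of regions at TPM 0 through 13.9, 19.7 and 27.2% to 34.0% in the highest quartile. Distal intergenic regions went the other way, from 45.6% at TPM 0 to 28.8, 23.8, 14.9 and 15.7%. Intron regions were most frequent in quartile 3 (42.2%) and held 30.7% at TPM 0 and 33.7% in the highest quartile. Promoter regions between 1 and 3 kb showed no such change, with 5.24 to 6.10% for 1 to 2 kb and 4.53 to 5.05% for 2 to 3 kb in all 5 groups.

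**Figure D3:**
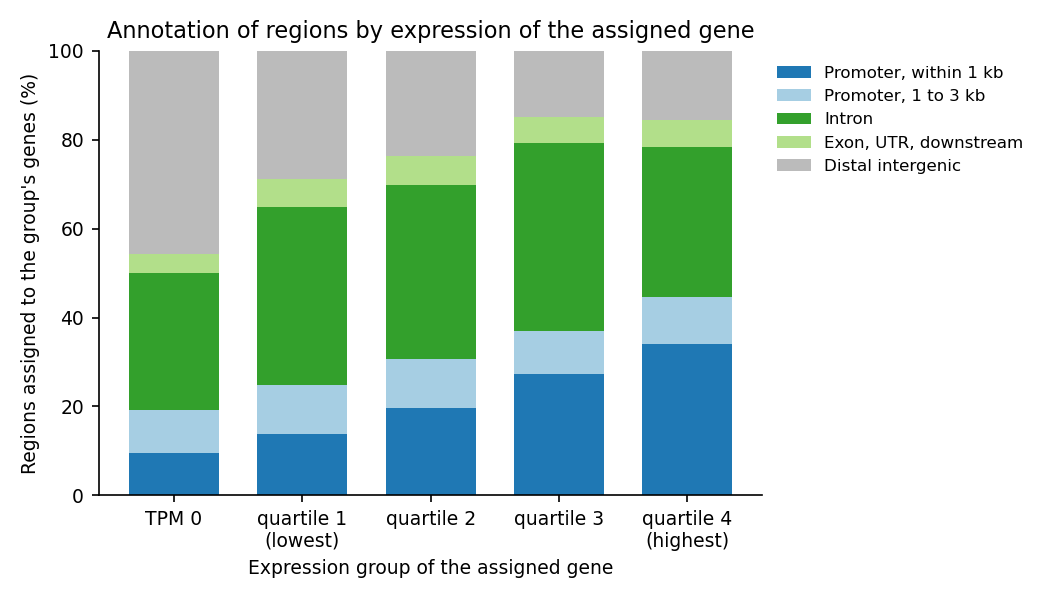
Share of regions (%) in each annotation class, by the expression group of the gene the authors assigned them to; each bar adds up to all regions of the group. The dark blue class (promoter within 1 kb) grows from 9.45% at TPM 0 to 34.0% in the highest quartile, the grey class (distal intergenic) shrinks from 45.6 to 15.7%, and the light blue class (1 to 3 kb) stays about the same.

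The tie between peak marks and expression was seen at the TSS and not away from it. Of regions within 1 kb of the TSS, 13.8% were marked in both WT libraries at TPM 0, 11.8% in quartile 1, 20.6% in quartile 2, 30.5% in quartile 3 and 34.8% in the highest quartile. Of regions 1 to 3 kb away the share was 11.7 to 12.9% in all 5 groups, of those 3 to 50 kb away 10.3 to 12.4%, and of those over 50 kb away 8.44 to 8.82%. The median signal per kb, in WT 1 and WT 2, did differ between groups at each of these distances. At 1 to 3 kb it went from 1.96 and 2.10 at TPM 0 to 2.36 and 2.51 in the highest quartile. At 3 to 50 kb it went from 1.85 and 1.99 to 2.13 and 2.32, and over 50 kb from 1.59 and 1.66 to 1.74 and 1.86.

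Among named genes of the highest quartile, the strongest TSS signal outside the mitochondrial genome was at Mpnd, which encodes an MPN-domain protein. Mpnd measured 130, 76.8 and 95.6 TPM and had a signal of 10.97 in WT 1 and 10.93 in WT 2. It came from 2 regions on GRCm39, chr17:56312767-56313005 with 351 and 269 reads and chr17:56316131-56316583 with 72 and 92 reads, both annotated as promoter, so most of the signal was in the 239 bases of the first. Gins2, a subunit of the GINS complex of the replicative helicase, followed with 5.98 and 9.70 at 40.3, 31.0 and 33.6 TPM. Sidt2, a lysosomal membrane protein, had 7.25 and 6.75 at chr9:45855069-45855667, and Twf2, an actin-binding protein, 6.77 and 6.74. Their expression, 27.0 ± 5.24 TPM for Twf2 to 101 ± 26.9 TPM for Mpnd (SD, n = 3), is far below that of the top of the quartile.

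Genes of the other groups were ranked in the same way. Tnni2, a fast skeletal muscle troponin at 0 TPM in each library, had a TSS signal of 6.38 in both, from a region upstream of the start (chr7:141994372-141994627; 91 and 78 reads) that was marked as a peak in WT 2 and not in WT 1. Upk2, a urothelial membrane protein, had 4.70 and 6.03 from a region 509 bases downstream (chr9:44365494-44365764), marked in both. In quartile 1, Hgfac, a protease that activates hepatocyte growth factor, had 6.51 and 6.64 at 0.136, 0 and 0 TPM, and Cibar2 6.82 and 7.10. In quartile 2, Sema3f, a secreted axon guidance cue, had 6.55 and 6.95 at 0.505 to 0.932 TPM, and Lsp1, a leukocyte actin-binding protein, 4.81 and 8.14. In quartile 3, Mroh2a had 8.28 and 8.07, Tap2, a peptide transporter of antigen presentation, 7.65 and 8.24, and Ifrd2 5.74 and 7.01. These genes were ranked by their signal, so their values are a description.

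The highest ranks also held loci of kinds that often have copies elsewhere in the genome. The 3 mitochondrial genes with a region, mt-Th, mt-Tl1 and mt-Rnr1, had signals of 150.5 to 168 in WT 1 and 161 to 177 in WT 2, and mitochondrial regions took 3.12 and 3.05% of the reads in regions. Other high values were at microRNA genes (Mir101c, 10.6 and 10.1; Mir6236, 25.4 and 25.6), pseudogenes (Fau-ps2, 13.1 and 11.6; Pisd-ps1, 6.71 and 5.31) and Duxbl1, a homeobox gene of a multicopy family (6.33 and 6.81). Sfi1, a centrosomal protein with 10.3 and 9.68 from regions at chr11:3092357-3092903 and chr11:3143063-3143528, lies on the same stretch of chromosome 11 as the regions of Pisd-ps1 and Fau-ps2. How uniquely reads map at these loci was not examined, so these values are uncertain.

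Some of the most highly expressed genes had no TSS region. Among the 6 most highly expressed nuclear genes without one was Cfl1, the actin-severing protein cofilin, at 4762, 4033 and 4239 TPM with no region assigned at any distance. Actg1, cytoplasmic gamma-actin, measured 3976, 3472 and 3811 TPM, and Tmsb4x, the actin-sequestering thymosin beta, 2368, 3181 and 2535 TPM, also with no region. Hnrnpa3, an RNA-binding protein, had no region at 1666, 2142 and 1866 TPM. Dbi, the acyl-CoA binding protein, had 2 regions and Olig1, a transcription factor of the oligodendrocyte lineage, 3 regions, all more than 1 kb from the TSS, at mean levels of 2480 ± 146 and 1928 ± 598 TPM (SD, n = 3).

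Of the 2352 genes of the highest quartile without a TSS region, 1162 had no region at all and 1190 had one elsewhere. In 69 of these 1190 (5.80%), a region that the authors assigned to another gene lay within 1 kb of the TSS. Assignment to a neighbour thus touched few of the genes for which it could be counted. The start sites of the other 1162 are not given by the region table, so they were not counted.

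The promoters themselves were read from RefSeq (GRCm38.p6), as the 250 bases before the start, for protein-coding genes outside chromosomes 8, 15, 18 and the mitochondrial genome, where the table is thin. Between 80.9 and 86.0% of such genes in each group had an entry. Where a gene had several promoters listed, the CpG count was their mean. Promoters were not matched to the start site that had the region. Median CpG counts in the window were 2 at TPM 0, 4 and 7 in quartiles 1 and 2, and 15.5 and 17.2 in quartiles 3 and 4, so expression and CpG content moved together. In the highest quartile the share of genes with a TSS region was nonetheless about the same in each CpG class: 64.6% (122 of 189; 57.5 to 71.0) with under 5 CpG, 65.1% (62.7 to 67.5) with 5 to under 15, and 64.8% (63.0 to 66.5) with 15 or more. At TPM 0 it was 4.24% (3.57 to 5.02), 16.7% (13.7 to 20.2) and 16.3% (10.5 to 24.6). Quartile 1 gave 14.6, 28.0 and 34.0%, quartile 2 gave 23.9, 39.0 and 39.5%, and quartile 3 gave 48.2, 60.6 and 59.5%. Within each CpG class the share grew from TPM 0 to the highest quartile.

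**Figure D4:**
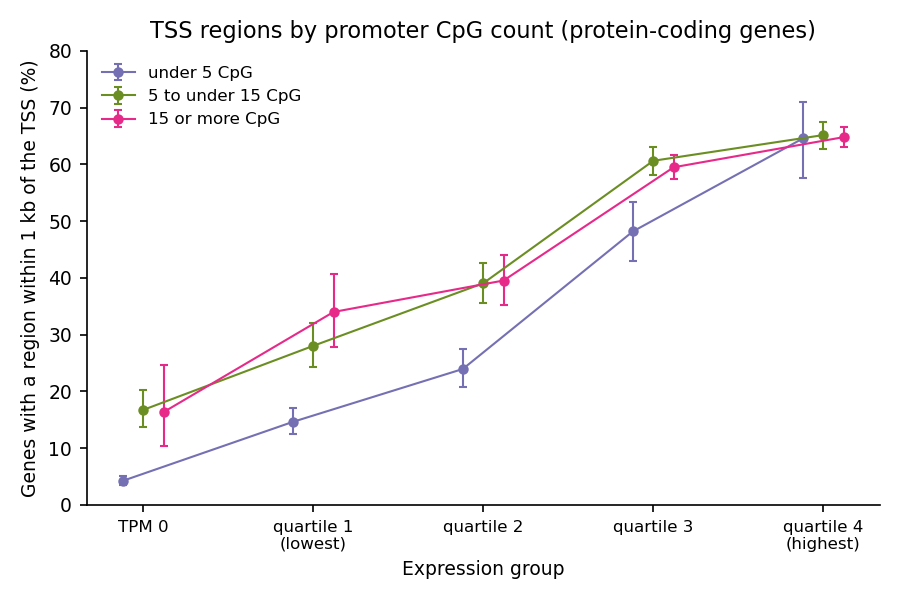
Share of protein-coding genes (%) with a region within 1 kb of the TSS by expression group, for promoters with under 5, 5 to under 15, and 15 or more CpG in the 250 bases before the start. Bars are 95% Wilson intervals; the classes are apart at TPM 0 (4.24% against 16.7 and 16.3%) and meet in the highest quartile (64.6, 65.1 and 64.8%).

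The sequences of 6 promoters show the range, with each CpG in capitals. They are the 250 bases before the start on the gene's strand, 5′ to 3′, with GRCm38.p6 coordinates that are not those of the regions above. Mpnd (chr17:56008951-56009200, plus strand, 11 CpG) and Sidt2 (chr9:45955250-45955499, minus strand, 21 CpG) are highly expressed and had strong TSS signals. The 2 Mpnd regions lie at different start sites and 1 promoter was listed. Which of the 2 regions that promoter goes with was not determined.
Mpnd: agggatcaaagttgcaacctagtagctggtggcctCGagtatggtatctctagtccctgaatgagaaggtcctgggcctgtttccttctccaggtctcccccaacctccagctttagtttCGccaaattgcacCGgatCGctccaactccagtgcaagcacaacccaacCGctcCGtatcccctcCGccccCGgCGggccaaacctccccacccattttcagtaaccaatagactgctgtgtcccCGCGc
Sidt2: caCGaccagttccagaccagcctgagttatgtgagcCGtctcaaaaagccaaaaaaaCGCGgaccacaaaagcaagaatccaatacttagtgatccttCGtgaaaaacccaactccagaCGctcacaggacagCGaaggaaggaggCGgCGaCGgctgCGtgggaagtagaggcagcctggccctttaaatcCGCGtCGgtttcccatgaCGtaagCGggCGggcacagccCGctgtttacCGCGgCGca
Actg1 (chr11:120348496-120348745, minus strand, 43 CpG) and Tmsb4x (chrX:167209219-167209468, minus strand, 15 CpG) are more highly expressed and had no assigned region.
Actg1: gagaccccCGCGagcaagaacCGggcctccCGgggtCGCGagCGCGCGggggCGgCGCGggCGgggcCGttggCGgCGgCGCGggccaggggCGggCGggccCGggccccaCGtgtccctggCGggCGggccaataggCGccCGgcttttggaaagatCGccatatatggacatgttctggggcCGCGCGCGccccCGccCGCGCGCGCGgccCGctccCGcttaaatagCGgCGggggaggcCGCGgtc
Tmsb4x: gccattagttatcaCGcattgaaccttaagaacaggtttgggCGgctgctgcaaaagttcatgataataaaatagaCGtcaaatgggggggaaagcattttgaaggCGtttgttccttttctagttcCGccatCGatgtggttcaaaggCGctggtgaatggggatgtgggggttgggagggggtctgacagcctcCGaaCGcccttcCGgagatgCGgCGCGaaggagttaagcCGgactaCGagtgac
Cphx1, a homeobox gene (chr14:25942294-25942543, plus strand, no CpG), and Scgb1c1, a secretoglobin (chr7:140845315-140845564, plus strand, 3 CpG), are TPM 0 genes with a TSS region, ranked 8 and 10 by signal and shown because those ranked above had no entry.
Cphx1: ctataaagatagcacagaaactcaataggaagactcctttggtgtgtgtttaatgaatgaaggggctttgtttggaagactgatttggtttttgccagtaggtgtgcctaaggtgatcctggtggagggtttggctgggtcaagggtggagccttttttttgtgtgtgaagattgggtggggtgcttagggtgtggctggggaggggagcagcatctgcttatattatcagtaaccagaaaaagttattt
Scgb1c1: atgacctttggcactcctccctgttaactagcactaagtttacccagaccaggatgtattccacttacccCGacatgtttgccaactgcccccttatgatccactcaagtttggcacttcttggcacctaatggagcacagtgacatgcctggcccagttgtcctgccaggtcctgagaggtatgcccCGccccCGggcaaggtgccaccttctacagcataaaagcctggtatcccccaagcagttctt
Actg1, with the most CpG of the 6, had no region assigned to it, while Cphx1, with none, had one. Whether a region assigned to another gene lay at the Actg1 start could not be counted. How uniquely reads map at Cphx1 was not examined.

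4 short promoter motifs were counted on both strands of the same window. They were the TATA box (TATAAA), the GC box (GGGCGG), the CCAAT box and the motif of NRF1, a factor of nuclear genes for mitochondria. In the highest quartile, in genes with and without a TSS region in turn, 7.15 and 7.32% held TATAAA, 69.7 and 63.7% GGGCGG, 44.0 and 37.5% CCAAT, and 12.4 and 11.1% the NRF1 motif. At TPM 0, TATAAA was held by 14.9% with and 27.5% without a region, GGGCGG by 25.4 and 8.49%, and CCAAT by 30.7 and 36.6%. No test of these differences was made. In these shares a gene held a motif if any of its listed promoters did. Of all 32851 promoters in the table, counted singly and for all genes and chromosomes listed, 12.4% held TATAAA, 32.7% GGGCGG, 33.8% CCAAT and 3.74% the NRF1 motif. The shares of single promoters are thus not directly comparable with those of genes. A match is only a match of letters and GGGCGG contains a CpG.

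Genes on the X chromosome had fewer TSS regions than autosomal genes of the same expression group. Of protein-coding genes in the highest quartile, 41.5% on the X (83 of 200; 34.9 to 48.4) and 64.8% on autosomes (3808 of 5875; 63.6 to 66.0) had one, with median levels of 59.4 and 59.7 TPM. In quartile 3 the shares were 32.6 and 58.7%, in quartile 2 17.0 and 34.5%, and in quartile 1 3.85 and 23.1%. At TPM 0, 0 of 305 X genes had one, which allows a share of up to 0.984%, against 7.76% on autosomes. The 19 autosomes ranged from 59.8% (chromosome 5) to 72.0% (chromosome 16) in the highest quartile, all above the X.

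The signal was lower on the X too. In the highest quartile the median TSS signal was 1.78 and 2.10 on the X and 2.56 and 2.86 on autosomes, in WT 1 and WT 2, below the lowest autosome in each (2.24 and 2.58). Regions 3 to 50 kb from a TSS also had lower signals, 1.53 and 1.75 on the X against 1.97 and 2.15. The X held 549 regions, 0.791% of all, with a median of 25 reads in each library against 34 and 31 on autosomes. Xist, the RNA of the inactive X, measured 0.0161 to 0.0250 TPM, while the Y-linked genes Eif2s3y, Ddx3y and Kdm5d measured 71.1 to 103, 12.7 to 16.9 and 11.1 to 13.8 TPM. These levels come from the RNA libraries, and their part in the X result was not tested.

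**Figure D5:**
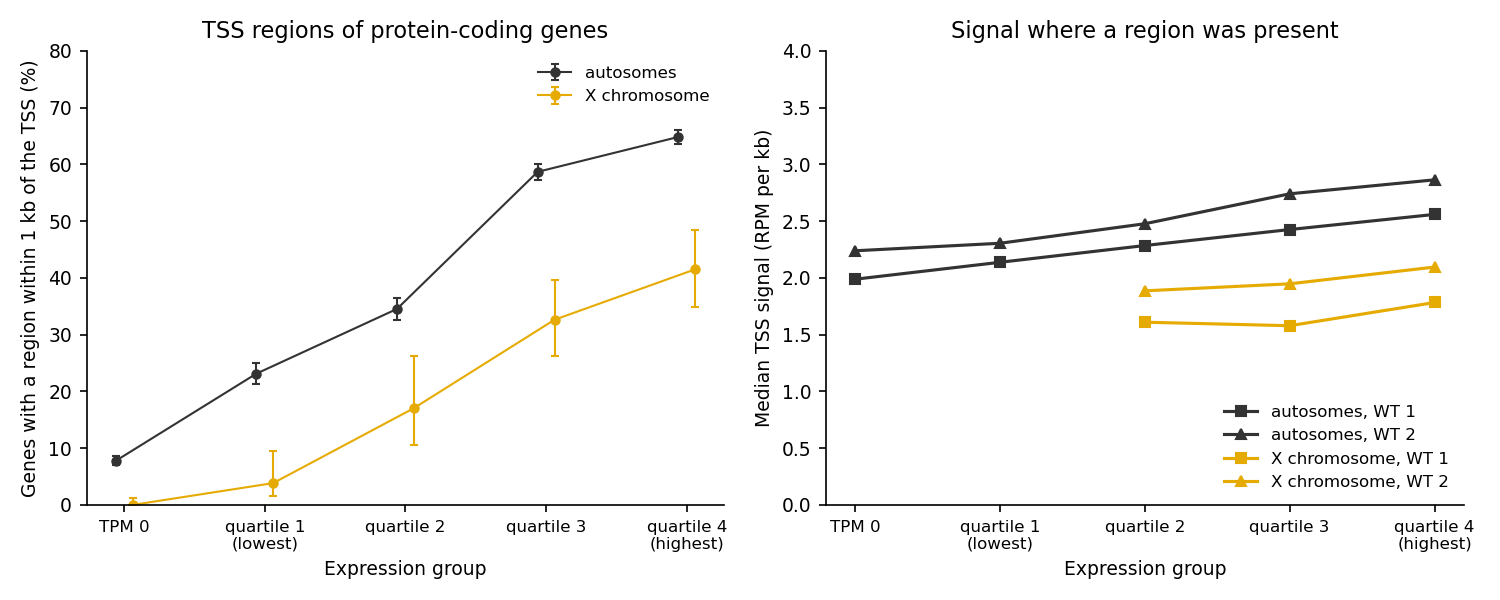
Left, share of protein-coding genes (%) with a region within 1 kb of the TSS by expression group, on autosomes and on the X, with 95% Wilson intervals. Right, median TSS signal (RPM per kb) in WT 1 (squares) and WT 2 (triangles), for groups with at least 10 genes with a TSS region. The X lies below the autosomes in each group on the left, with 41.5 against 64.8% in the highest quartile.

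Lists of highly expressed genes were compared with the share of their quartile. Of 15 glycolysis genes in the highest quartile 13 had a TSS region (86.7% against 62.8% of the quartile), and the median signal of the 14 listed genes with a region was 3.53 and 4.04. Eno1, enolase, measured 3293, 2178 and 2481 TPM with a signal of 4.52 and 5.52 at chr4:150321296-150321807, and Tpi1, triosephosphate isomerase, had 4.49 and 4.82. Gapdh had 3.32 and 3.29. Ldha, lactate dehydrogenase A, had no region at 1002 to 1324 TPM. Nuclear subunits of oxidative phosphorylation had a TSS region in 20 of 28 genes, with a lower median signal of 2.34 and 2.63; Cyc1, of complex III, had 4.63 and 4.80.

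Genes of the ribosome, DNA replication, mitosis, and general transcription and splicing lay near or below the share of the highest quartile (62.8%). Of 81 ribosomal protein genes in the highest quartile 45 had a TSS region, of 21 DNA replication genes 12, of 20 genes of G2 and mitosis 11, and of 20 genes of general transcription and splicing 13. Rps2 had a signal of 3.58 and 4.18 and Rplp0 3.20 and 4.65, at mean levels of 2042 ± 393 and 1973 ± 431 TPM (SD, n = 3). Pcna, the replication clamp, had 2.43 and 2.73 at 520 ± 63.4 TPM, and Rrm2, of ribonucleotide reductase, had none at 315 ± 21.1 TPM. Immediate early genes, which respond to stimuli within minutes to hours, had a TSS region in 13 of 19 genes at a median level of 7.20 TPM. All 4 in the highest quartile had one, against 62.8% of the quartile. In quartile 3 it was 7 of 11 (63.6% against 51.8% of the quartile and 57.7% of its protein-coding genes). In quartile 2 it was 2 of 4 (50% against 21.4 and 33.9%). The median signal of the 13 genes was 3.13 and 3.78, with Junb at 4.22 and 5.03, Jun at 3.20 and 4.28 and Egr1 at 4.31 and 4.48. Counts this small have wide intervals and are given as a description.

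Stem cell and radial glia genes had a TSS region in 13 of 24 cases, and 9 of the 18 in the highest quartile had one (50% against 62.8% of the quartile). Notch1, the receptor that holds neural stem cells undifferentiated, had the strongest, 5.38 and 4.75 at chr2:26393789-26394035 and 52.2 ± 15.8 TPM (SD, n = 3). Id3, an inhibitor of bHLH factors, had 4.50 and 3.15. The region at Nes had 2.56 and 2.75 and was marked as a peak in neither library, and that at Sox2, 391 bases upstream, had 2.95 and 1.56 and was marked in WT 1 only. Fabp7, the highest of the list, had a weak signal of 1.63 and 2.25. Hes1 and Slc1a3 had regions only farther than 1 kb from the TSS, and Sox9 and Msi1 had none, with mean levels of these 4 genes from 41.9 to 1251 TPM.

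Of 16 astrocyte genes 11 had a TSS region, none of them marked in both libraries, with 9 of 14 in the highest quartile (64.3% against 62.8%). Aldh1l1, a folate enzyme of astrocytes, had 6.20 and 4.24, and Apoe 3.68 and 4.82. Of 23 neuron and synapse genes 12 had one, with 6 of 7 in quartile 3 (85.7% against 51.8% of the quartile). In quartile 2 it was 3 of 8 (37.5% against 21.4%). Among all protein-coding genes the shares were 57.7% in quartile 3 and 33.9% in quartile 2. Gad1, which makes GABA, had 2.87 and 4.09 at 6.52 ± 0.843 TPM, and Gria2, an AMPA receptor subunit, 3.55 and 4.05. Of 16 genes of intermediate progenitors and neuroblasts 9 had one, with 3 of 6 in quartile 2 and 3 of 4 in the highest quartile. Dlx1 had 3.05 and 3.56 at 0.251 to 0.751 TPM. In the oligodendrocyte lineage 4 of 14 genes had one, with 2 of 5 in the highest quartile. With so few genes a group, these shares are a description.

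Markers of other cell types were low in expression and differed in their TSS regions. Against 20.3% over all genes, a TSS region was found at 3 of 14 microglia genes (21.4%), 5 of 20 striated muscle genes (25%) and 3 of 20 lymphocyte genes (15%), which is near that share. That share covers all expression levels, while the median levels of these 3 lists were 0 to 0.0429 TPM. Of TPM 0 genes 6.48% had a TSS region. In that group it was 2 of 9 microglia, 2 of 6 striated muscle and 0 of 9 lymphocyte genes. Over all levels a TSS region was found at 2 of 20 liver genes (10%) and 2 of 22 germ line genes (9.09%). At erythroid genes it was 0 of 9, which allows a share of up to 33.3%. Fibroblast and meningeal genes had one in 5 of 12 cases (41.7%) at a median of 0.140 TPM, 3 of them in quartile 3. Endothelial and pericyte genes had one in 7 of 12 cases (58.3%), and 11 of the 12 were below 1 TPM. In quartile 2 this was 4 of 6 endothelial and pericyte genes, against 21.4% of the quartile and 33.9% of its protein-coding genes. Cdh5, the endothelial cadherin, had 2.04 and 3.67 at 0 TPM, and Abcc9, a pericyte channel subunit, 1.89 and 2.02. None of the 7 genes had a TSS region marked in both libraries. C1qc, a microglial complement gene at 0 TPM, had 1.94 and 3.25.

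Families of developmental and clustered genes differed among themselves. Of 16 telencephalic patterning factors 1 had a TSS region, and none of the 8 in quartile 3 did, which allows a share of up to 37.5% against 51.8% for that quartile. Otx2 had none at 18.2 to 22.7 TPM and Nr2f1 none at 27.9 to 41.6 TPM. The gene that had one was Emx1, a factor of the dorsal telencephalon at 0 TPM, with 3.82 and 3.67 at chr6:85169587-85170362, marked in both libraries. Factors of the diencephalon, midbrain and hindbrain had one in 7 of 20 cases. In quartile 3 it was 5 of 11 (45.5% against 51.8% of the quartile) and in quartile 1 2 of 7 (28.6% against 14.5%). Among all protein-coding genes the shares were 57.7% in quartile 3 and 22.2% in quartile 1. Irx3 was among the 7 factors with a TSS region, with 3.85 and 3.20. Hox genes, which pattern the hindbrain and trunk, had one in 6 of 39 cases. Of these, 3 were among the 28 Hox genes at TPM 0 (10.7% against 6.48% of that group).

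Clustered protocadherins, neuronal cell surface proteins encoded in tandem arrays, had a TSS region at 1 of 55 genes. Of the 37 in quartile 3 only Pcdhac1 had one (1.27 and 1.44), against 51.8% of that quartile. Pcdhga4 had none at 27.1 ± 3.82 TPM (SD, n = 3). Members of the alpha cluster share their 3′ exons, and so do those of the gamma cluster, so RNA reads of these can be split. Histone genes had one at 16 of 72, with 3 of 14 at TPM 0 (21.4% against 6.48%), 11 of 36 in quartile 2 (30.6% against 21.4%) and 1 of 12 in quartile 3 (8.33% against 51.8%). In the highest quartile it was 0 of 4, which allows up to 75%. Among all protein-coding genes the shares were 6.93% at TPM 0, 33.9% in quartile 2 and 57.7% in quartile 3. Most histone mRNAs lack a poly(A) tail, and the RNA was selected for it. Zinc finger genes with Zfp symbols had one in 206 of 391 cases. In quartile 3 it was 157 of 267 (58.8% against 51.8% of the quartile) and in the highest quartile 31 of 47 (66% against 62.8%). In quartile 2 it was 15 of 34 (44.1% against 21.4% of the quartile and 33.9% of its protein-coding genes). In quartile 1 it was 2 of 15 (13.3% against 14.5%) and at TPM 0 1 of 28 (3.57% against 6.48%). Olfactory receptor genes had one in 22 of 1156, of which 12 were among the 945 at TPM 0 (1.27% against 6.48% of that group), vomeronasal receptor genes in 1 of 356 and keratin genes in 1 of 51.

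A list of 18 genes around arginine methylation held protein arginine methyltransferases, JmjC proteins, the Tudor-domain proteins Tdrd3 and Smndc1, and Wdr77, a cofactor of Prmt5. Of the 18, 10 had a TSS region, with 8 of the 13 in the highest quartile (61.5% against 62.8% of the quartile). Carm1, which methylates histone H3, had the strongest signal, 3.93 and 4.87 at chr9:21457408-21458074 and 57.1 ± 8.46 TPM (SD, n = 3). Prmt2 had 3.09 and 3.10, and Jmjd6, a JmjC protein, 2.34 and 3.22. Prmt1, the main writer of asymmetric arginine methylation on histone H4, was the most highly expressed of the list (348, 274 and 296 TPM) and had no region. Prmt5 had a region only farther than 1 kb away, at 113 to 126 TPM. Riox2 itself, in quartile 3 at 21.1, 16.6 and 19.9 TPM, had 1 region over its TSS (chr16:59292238-59292437) with 22 and 26 reads, a signal of 1.97 and 2.72 and a peak mark in WT 2 only.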

How the data were processed

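The RNA-seq table holds the authors' deposited expected counts per gene, made from poly(A)-selected RNA, per the labels. HISAT2, StringTie and GRCm39 are listed, with no version, per the submitters' processing notes; the peak caller, its threshold and each counting tool were not given in the sources used here. For CUT&Tag the authors deposited whole-number counts per region, merged over the 4 libraries, a peak mark per library, and the assigned gene, annotation and distance to the TSS. The deposited RPM equal the count plus 1, scaled to a library total, and that total was recovered from them and used for the signal. The marks, gene assignment, distances and gene lengths are the authors' own values, per the file headers.

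TPM were computed from the unrounded expected counts and the gene length in the same table, then averaged over the 3 WT libraries. A gene's TSS signal is its count in regions within 1000 bases of the TSS, as RPM of that total, per kb of region. Shares have 95% Wilson intervals, and the limit for a count of 0 is 3 counts; both cover counting error only. RefSeq (GRCm38.p6) gave gene type, chromosome and promoters by Entrez number for 25686 genes, and no coordinates were converted between builds. Python 3.11.15 with pandas 2.3.3, numpy 2.4.6 and scipy 1.17.1 was used, and edgeR 4.0.16 for TMM factors in an alternative. The grouping and signal code was tested on simulated data.

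Named genes were the 5 with the strongest TSS signal in each group (at least 10 reads in each library), the 6 most highly expressed of the highest quartile without a TSS region, and in each of 31 lists the 2 highest by TPM and the 2 highest by signal, leaving out predicted and clone names. The remaining list members named, the sex-linked genes, Riox2, Cphx1, Scgb1c1 and the genes of the closing section were chosen after their values were seen. Of the lists, 9 were taken by symbol pattern, and of 408 symbols in the others 405 were found. The expression groups and lists were chosen with earlier results of these data known. Groups came from sample titles and genotype labels. Alternatives covered the expression unit, the window, the regions and genes used, the scaling and each library left out. KO libraries were left out because no KO comparison was made.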

Additional observations from a re-analysis of the deposited data

How the results depend on the processing

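The share of highest-quartile genes with a TSS region (62.8%) and that of TPM 0 genes (6.48%) were far apart under each of the 19 alternatives run. The first ranged from 62.7 to 63.0% and the second from 6.48 to 6.78% with a library left out, the signal ratio of the highest to the lowest quartile from 1.19 to 1.21 and the rho of TPM and signal from 0.134 to 0.158. In the order of these 4 results, regions marked as peaks in both WT libraries gave 26.8%, 0.944%, 0.989 and 0.0603, and regions with at least 20 reads in each gave 59.2%, 4.50%, 1.11 and 0.101. Regions marked in at least 1 WT library, an alternative chosen after seeing the data, gave 50%, 3.26%, 1.08 and 0.0889. A window of 3 kb gave 69.7 and 12.6%. CPM in place of TPM gave 64.4%, a ratio of 1.17 and a rho of 0.121. Median TPM gave 7.12% at TPM 0, 1.19 and 0.136, and counting genes below 0.1 TPM as 0 gave 7.67%, 1.17 and 0.123. Protein-coding genes gave 64.5%, 6.93% and a rho of 0.132, and leaving out predicted names 64.2% and 0.133. Autosomal protein-coding genes, also chosen after seeing the data, gave 65.5%, 7.76%, 1.21 and 0.136. Reads not divided by length gave a ratio of 1.52 and a rho of 0.193, and the strongest region of a gene a ratio of 1.21. By construction, the settings by peak mark or read minimum count fewer regions and the wider window counts more. For the other settings the cause was not tested. No paired analysis was possible because no test was made between groups and the replicate numbers of the RNA and CUT&Tag libraries do not tie them to each other. A median of 34 and 31 reads per region limits the precision of a gene's signal, and 2 libraries limit that of every CUT&Tag value.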

Other observations

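The genes with the most regions among expressed genes were long. Pde4d, a cyclic AMP phosphodiesterase, had 58 regions along 1297 kb at 6.83 to 9.27 TPM, Rbfox1, a neuronal splicing factor, 39 along 1468 kb at 1.30 to 2.29 TPM, and Kalrn, a signalling protein of dendritic spines, 33 along 524 kb. In the highest quartile Ntm, a neuronal cell adhesion protein, had 33 along 552 kb, 27 of them in introns and none within 1 kb of the TSS, followed by Rbms3 with 29 and Celf2 with 28, both RNA-binding proteins. Erc2, of the presynaptic active zone, led quartile 2 with 25 along 856 kb, 23 of them in introns, and Dlgap2, of the postsynaptic density, led quartile 1 with 18 along 751 kb. At TPM 0 the leaders were microRNA genes, with 17 regions each assigned to Mir101c and Mir6239, which are 75 and 105 bases long.

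The 9 regions on the Y chromosome had a median signal of 5.80 in WT 1 and 5.90 in WT 2, against 2.04 and 2.20 on autosomes and 1.58 and 1.83 on the X. Of the 9, 7 lay 3 to 50 kb from a TSS, with the same medians, against 1.97 and 2.15 on autosomes at that distance. None of the 9 lay within 1 kb of a TSS, and Eif2s3y, Ddx3y and Kdm5d had no assigned region. How uniquely reads map on the Y was not examined, so these few values are uncertain.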
